A study of Arabidopsis thaliana with 32 samples.

Results

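The data described here compare the shoots of the quadruple mutant q-lsu-KO with the shoots of the wild type (WT) under sulfur (S) deficiency [dS]. The 8 libraries are 4 of q-lsu-KO and 4 of WT, taken from 32 libraries in 8 groups that cover shoots and roots, both genotypes and 2 S supplies. All plants were Arabidopsis thaliana of the Col-0 ecotype, and q-lsu-KO is 1 line with deletions in each of the 4 LSU genes. Seedlings of both genotypes grew on plates for 10 days with normal S [nS], a medium with 1 mM sulfate, and then for 5 days on medium in which chloride replaced the sulfate of the magnesium salt. Each library was made from the shoots of at least 10 seedlings pooled, the replicates are biological, and all 8 were sequenced in the same pool, so that the comparison of genotypes is not crossed with a pool. RNA was measured by 3′RNA-seq, in which a tag near the 3′ end of each mRNA is counted, and the values are counts per gene with no normalization by the authors.

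LSU proteins (RESPONSE TO LOW SULFUR) are small proteins found only in plants, and their genes are among those most strongly induced when sulfate runs short. Plants take up sulfate, activate it with ATP sulfurylase (ATPS), reduce it with APS reductase (APR) and sulfite reductase (SiR) and build it into cysteine, glutathione and glucosinolates (GSL), S-rich defense compounds of cabbage relatives. Touch, wounding and microbial patterns set off another, much faster programme of calmodulin-like genes and of ZAT, ERF and WRKY transcription factors, whose mRNA levels move within minutes. The question of this comparison is what the loss of the LSU genes changes in shoots that are already short of S.

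Total counts ran from 2316770 to 2857129 in the WT libraries and from 1096342 to 2596083 in the q-lsu-KO libraries, so the mutant was measured at lower depth. The shoot label held: the 6 leaf mesophyll markers together made up 37207 to 42597 CPM (counts scaled to the size of the library) in WT and 36303 to 41185 CPM in the mutant, while 1 of 7 root markers passed the filter on low counts. Replicate 1 of WT was the lowest of the WT libraries in several gene lists described below, and calls lost without it are given as such beside the genes named. As in all bulk tissue, fewer cells of a type and less RNA per cell cannot be told apart.

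Most of the genes that differed in q-lsu-KO shoots under [dS] were above their WT level. Of 14593 genes tested, 515 (3.53%) rose and 93 (0.637%) fell (edgeR quasi-likelihood test, adjusted p under 0.05 with a change beyond 1.5-fold). With no fold threshold, 636 (4.36%) were higher and 217 (1.49%) lower at an adjusted p under 0.05, and 2563 (17.6%) differed either way at an unadjusted p under 0.05. The rises were also larger, with 280 of the 515 above 2-fold and 48 above 4-fold, whereas 26 of the 93 falls were beyond 2-fold and 1, LSU2, beyond 4-fold. All 4 q-lsu-KO libraries lay above all 4 WT libraries for 458 of the 515 genes, against 896 of all tested genes (6.14%), and below them for 77 of the 93, against 615 (4.21%). The calls depended on single libraries: without replicate 1 of WT 329 genes rose and 52 fell, and without replicate 4 of q-lsu-KO 331 rose and 48 fell. With upper-quartile scaling 453 rose and 160 fell, a less lopsided split than the main one.

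The LSU genes themselves came first, as a check of the labels. LSU2 (AT5G24660) was at 416, 402, 380 and 367 CPM in the 4 WT libraries and at 13.3, 8.97, 14.6 and 8.08 CPM in q-lsu-KO (log2 fold change -5.17 ± 0.16 SE, adjusted p = 1.1e-16). Its neighbour LSU4 (AT5G24655) had 7.63, 12.6, 11.8 and 12.3 CPM in WT and 104, 77.2, 93.7 and 119 CPM in the mutant. LSU3 (AT3G49570) stood at 294, 278, 302 and 307 CPM in WT and 416, 407, 457 and 470 CPM in q-lsu-KO, which do not overlap, but its difference of 0.57 ± 0.19 did not pass the test (adjusted p = 0.11). LSU1 (AT3G49580) had 1380, 1195, 1582 and 1606 CPM in WT and 2770, 2578, 2870 and 3023 CPM in the mutant (0.96 ± 0.18, adjusted p = 0.0075). These tags do not test a deletion that lies elsewhere in the gene, and the counting may have divided tags among such similar sequences.

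In the early stress genes, differences between genotypes stood beside a wide spread between the WT replicates. In the list of touch and calmodulin-like genes, 8 of 20 tested members rose and 0 fell, with a median log2 fold change of 1.43 beside -0.02 over all genes tested. In the list of WRKY factors 8 of 18 rose and 0 fell (median 0.80). In the list of ZAT and ERF factors only 2 of 20 rose, ERF4 and DREB2A, although the median was 1.27 and all 20 estimates were above 0. DESeq2 called 10, 8 and 6 members of these 3 lists higher. The share of all genes called higher was 3.53%.

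**Figure D1:**
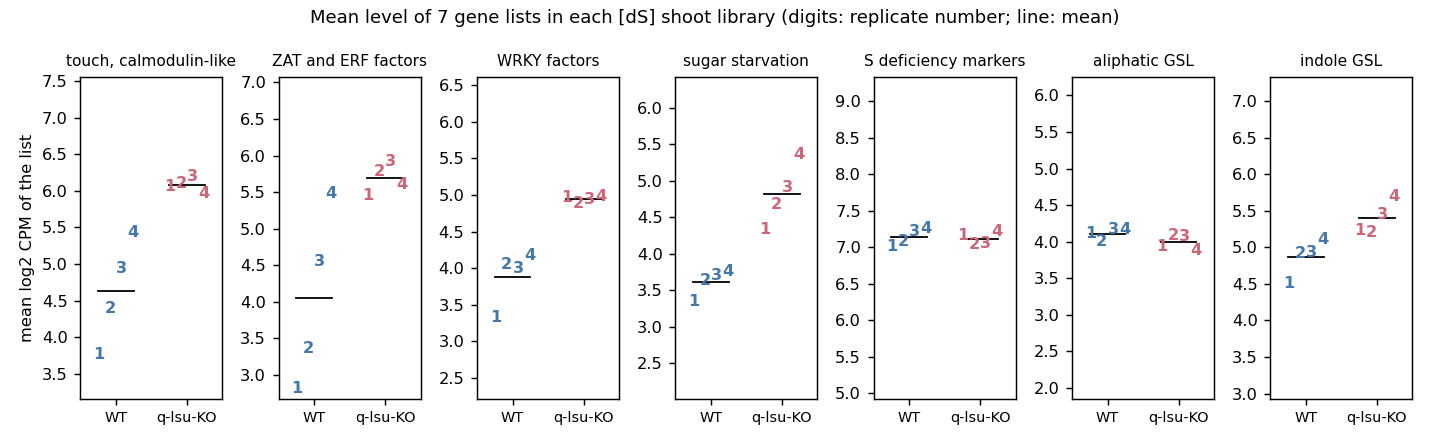
Mean log2 CPM over the tested members of 7 gene lists in each [dS] shoot library (y axis, the same span in each panel), with WT in blue and q-lsu-KO in red, digits for replicate numbers and lines for group means. In the touch list WT runs from 3.77 to 5.43 and q-lsu-KO from 5.96 to 6.19, while the levels of S deficiency markers overlap.

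The order of the WT libraries was alike in the touch and the ZAT and ERF lists. The mean log2 CPM of the touch list was 3.77, 4.39, 4.95 and 5.43 in WT replicates 1 to 4 and 6.06, 6.10, 6.19 and 5.96 in q-lsu-KO. That of the ZAT and ERF list was 2.82, 3.37, 4.56 and 5.48 in WT and 5.46, 5.77, 5.92 and 5.60 in q-lsu-KO. Replicate 1 was lowest and replicate 4 highest in both lists, and in the second list WT replicate 4 reached the level of the mutant libraries. The ZAT and ERF list spanned a 6.34-fold range among the WT libraries and a 1.38-fold range among the q-lsu-KO libraries. For WRKY factors the means were 3.33, 4.05, 3.99 and 4.17 in WT and 4.96, 4.89, 4.94 and 4.97 in q-lsu-KO, without overlap, and the WT libraries other than replicate 1 lay close together.

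The 10 genes with the widest range in WT among these 3 lists were ERF104, ZAT10, ORA47, ERF105, ERF13, SZF1, ERF5, ZAT6, ACS6 and CML38, of which CML38 passed the test of genotype and the other 9 did not. ERF104 (AT5G61600), an ethylene response factor that acts in immunity, was at 1.70, 13.8, 54.5 and 114 CPM in WT and at 98.7, 105, 123 and 93.5 CPM in q-lsu-KO. ZAT10 (AT1G27730), a zinc finger repressor of stress responses, was at 6.36, 22.2, 114 and 236 CPM in WT and at 242, 278, 257 and 145 CPM in q-lsu-KO. The mutant libraries thus held levels that WT reached in replicate 4 only, and the test gave adjusted p = 0.52 for ERF104 and 0.48 for ZAT10. ORA47 (AT1G74930), a factor that activates jasmonate synthesis, had 1.27, 5.44, 31.8 and 68.4 CPM in WT and 38.2, 47.6, 47.3 and 34.6 CPM in the mutant (adjusted p = 0.75). In ERF105, ERF13, ERF5, ZAT6 and ACS6, a gene of ethylene synthesis, WT replicate 4 was highest and replicates 1 and 2 were lowest. SZF1 (AT3G55980), a zinc finger gene induced by salt and chitin, did not overlap, with 18.2, 29.7, 86.6 and 192 CPM in WT and 308, 470, 462 and 362 CPM in q-lsu-KO, and stayed short of the threshold (2.28 ± 0.63, adjusted p = 0.054).

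**Figure D2:**
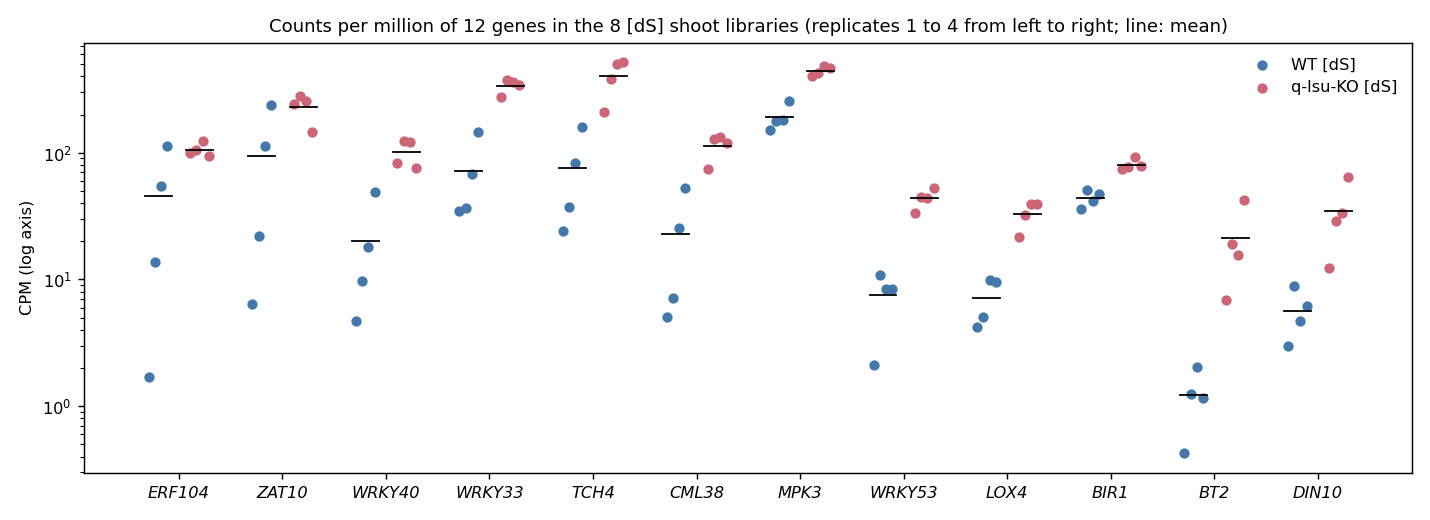
CPM of 12 genes (y axis, log scale) in the 4 WT (blue) and 4 q-lsu-KO (red) [dS] shoot libraries, replicates 1 to 4 from left to right and lines for means. ERF104 and ZAT10 overlap between genotypes, with WT at 1.70 to 114 and at 6.36 to 236 CPM, while WRKY53 and LOX4 have all q-lsu-KO libraries above all WT libraries.

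Several well-known touch and WRKY genes rose, with a wide range in WT and every q-lsu-KO library above every WT library. TCH4 (AT5G57560), a xyloglucan-modifying enzyme of the cell wall, was at 24.2, 37.3, 82.2 and 160 CPM in WT and 208, 379, 498 and 517 CPM in q-lsu-KO (2.38 ± 0.57, adjusted p = 0.028). CML38 (AT1G76650), a calmodulin-like calcium sensor, was at 5.09, 7.12, 25.4 and 53.0 CPM in WT and 73.7, 127, 132 and 120 CPM in q-lsu-KO (2.28 ± 0.51, adjusted p = 0.020). WRKY33 (AT2G38470), a regulator of camalexin synthesis and of resistance to necrotrophs, was at 34.3, 36.9, 68.3 and 146 CPM in WT and 275, 377, 358 and 340 CPM in q-lsu-KO (2.23 ± 0.50, adjusted p = 0.020). WRKY40 (AT1G80840), a repressor in basal defense, had 4.66, 9.63, 17.9 and 48.8 CPM in WT and 82.2, 124, 122 and 76.2 CPM in q-lsu-KO (2.29 ± 0.57, adjusted p = 0.034). These calls were fragile. Without replicate 1 of WT, TCH4, WRKY33 and WRKY40 lost theirs (adjusted p = 0.078, 0.066 and 0.091), and CML38 kept it (adjusted p = 0.048) but lost it in other fits without 1 library.

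Other members kept their call in all 8 fits that left out 1 library. WRKY53 (AT4G23810), a regulator of leaf senescence, had 2.12, 10.9, 8.46 and 8.45 CPM in WT and 33.4, 44.8, 43.7 and 53.1 CPM in q-lsu-KO (2.52 ± 0.26, adjusted p = 4.2e-06). MPK3 (AT3G45640), a mitogen-activated protein kinase of immune and stress signaling, had 151, 178, 182 and 257 CPM in WT and 406, 424, 482 and 465 CPM in q-lsu-KO (1.21 ± 0.19, adjusted p = 0.0017). WRKY11, WRKY22 and WRKY25 also kept their calls, with log2 fold changes of 0.77 ± 0.13, 1.96 ± 0.36 and 0.83 ± 0.17. So did the touch list members ATL31, a ubiquitin ligase gene of the carbon and nitrogen balance, at 1.89 ± 0.38, and PUB23, a ubiquitin ligase gene that dampens immunity, at 1.35 ± 0.23. Without replicate 1 of WT the counts of higher members fell to 6 of touch genes, 5 of WRKY factors and 1 of ZAT and ERF factors, with TCH2 and ERF4 among the calls lost, and without replicate 4 of q-lsu-KO they were 4, 5 and 3. Without replicate 4 of WT they were 12, 9 and 12.

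The promoters of 3 of the called members are shown for the short elements they hold, as the 250 bases before the annotated start of the gene in TAIR10.1 (RefSeq annotation), read 5′ to 3′ on the strand of the gene. The members were chosen, with their values known, as those with several matches. In TCH2, a calmodulin-like gene (AT5G37770, chr5:14999620-14999869, minus strand), capitals mark CGCGTT on either strand, the core of the rapid stress response element, and the 4 matches overlap in 2 pairs. In WRKY33 (chr2:16107985-16108234, plus strand) and WRKY53 (chr4:12393983-12394232, minus strand) capitals mark the W-box, the element bound by WRKY factors, as TTGACC or TTGACT on either strand.
TCH2: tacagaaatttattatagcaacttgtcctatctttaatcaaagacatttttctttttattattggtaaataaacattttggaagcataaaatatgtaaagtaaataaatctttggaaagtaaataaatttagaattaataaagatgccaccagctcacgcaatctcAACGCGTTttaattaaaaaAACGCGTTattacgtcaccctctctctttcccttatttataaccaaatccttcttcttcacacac
WRKY33: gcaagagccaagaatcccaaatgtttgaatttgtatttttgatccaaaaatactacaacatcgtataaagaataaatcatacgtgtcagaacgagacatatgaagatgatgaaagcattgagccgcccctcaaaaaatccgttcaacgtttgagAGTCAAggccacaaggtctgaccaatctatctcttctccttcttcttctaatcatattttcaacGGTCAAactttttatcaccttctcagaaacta
WRKY53: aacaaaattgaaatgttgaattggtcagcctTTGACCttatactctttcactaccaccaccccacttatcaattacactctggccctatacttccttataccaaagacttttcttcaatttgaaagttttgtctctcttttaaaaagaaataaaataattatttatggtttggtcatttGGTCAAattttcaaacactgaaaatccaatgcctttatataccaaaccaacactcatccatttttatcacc

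The same windows were read for 14502 of the tested genes. CGCGTT, on either strand, stood in 9.38% of the windows of genes called higher (48 of 512), in 1.09% of those called lower (1 of 92) and in 2.72% of all windows. TTGACC or TTGACT stood in 42.6% of the windows of genes called higher, in 28.3% of those called lower and in 27.4% of all. Among the touch genes 3 of 20 windows held CGCGTT and among the ZAT and ERF factors 0 of 20. Other elements were read too. CACGTG stood in 7.42% of the windows of genes called higher and in 7.54% of all, and GCCGCC in 1.37% and 1.97%. TATCCA stood in 19.5% and 14.7%. All these shares are descriptions, and no test was made of them.

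Genes of immune signaling rose beside the WRKY factors. In the list of pattern-triggered immunity, 8 of 17 tested members rose and 0 fell (median 0.78), beside 3.53% and 0.637% of all tested genes. RBOHD (AT5G47910), the NADPH oxidase of the immune oxidative burst, was at 34.3, 34.3, 38.2 and 53.8 CPM in WT and 70.5, 97.9, 106 and 141 CPM in q-lsu-KO (1.36 ± 0.21, adjusted p = 0.0014). The receptor kinase genes SOBIR1, BIR1, LYK5 and PEPR1 rose by 1.06 ± 0.20, 0.87 ± 0.12, 1.19 ± 0.20 and 0.82 ± 0.18 on the log2 scale, and each kept its call in the 8 fits without 1 library. The other called members were the kinase gene BIK1, the transporter gene PEN3 and NHL3, a gene induced by bacteria, at 0.78 ± 0.22, 0.80 ± 0.20 and 1.54 ± 0.35. BIK1 and PEN3 lost their calls without replicate 1 of WT (adjusted p = 0.12 and 0.13). Without replicate 4 of q-lsu-KO 5 of the 17 passed.

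A gene outside the naming rule, picked with its values known, shows the same group in a tight form. GILP (AT5G13190), which encodes a LITAF domain protein of the plasma membrane, had 38.6, 48.6, 51.4 and 66.1 CPM in WT and 110, 128, 128 and 127 CPM in q-lsu-KO (1.26 ± 0.11, adjusted p = 2.5e-10). Of 78 tested genes whose product name in the annotation holds words for disease resistance proteins, 14 (17.9%) rose and 0 fell, among them the immune receptor genes ZAR1 (0.99 ± 0.10) and WRR4 (1.22 ± 0.15). By product names chosen after the values were seen, 9 of 53 calmodulin-like and calcium-binding genes rose and 1 fell. In the same way 5 of 34 syntaxin and exocyst genes rose and 0 fell, and 24 of 245 protein kinase genes rose and 4 fell. The median log2 fold changes of these groups were small, at 0.17, 0.07 and 0.03 in that order. Over all tested genes 3.53% rose and 0.637% fell. Of 105 ribosomal protein genes 2 rose and 0 fell, and of 63 photosystem and chlorophyll genes 0 rose and 0 fell.

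Of 13 tested genes of salicylate synthesis and response 3 rose and 0 fell, beside 3.53% and 0.637% of all tested genes. CBP60G (AT5G26920) and SARD1 (AT1G73805), related factors that switch on salicylate synthesis, rose by 1.60 ± 0.32 and 1.11 ± 0.28, and PAD4 (AT3G52430), an immune regulator, by 1.03 ± 0.24. The groups overlap for SARD1, which lost its call without replicate 1 of WT (adjusted p = 0.062). PR1 (AT2G14610), the classical salicylate output gene, was at 9.33, 188, 68.3 and 12.7 CPM in WT and 142, 19.5, 32.7 and 47.3 CPM in q-lsu-KO, with overlap and adjusted p = 0.95. PR2 and PR5 scattered alike, with replicate 2 highest in WT and replicate 1 highest in q-lsu-KO in all 3 genes. NPR3 (AT5G45110), a salicylate receptor gene named with its values known, stood at 13.1, 28.9, 25.7 and 27.3 CPM in WT and 68.4, 55.0, 51.8 and 57.7 CPM in q-lsu-KO (1.29 ± 0.16, adjusted p = 1.1e-06).

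In the jasmonate pathway, 4 of 11 tested synthesis genes rose and 0 fell (median 0.34), beside 3.53% and 0.637% of all tested genes. LOX4 (AT1G72520), a 13-lipoxygenase at the start of the pathway, was at 4.24, 5.03, 9.81 and 9.60 CPM in WT and 21.7, 32.4, 39.1 and 39.2 CPM in q-lsu-KO (2.14 ± 0.21, adjusted p = 1.7e-09). LOX3 rose by 0.93 ± 0.17, OPCL1, which activates jasmonate precursors, by 1.05 ± 0.21, and OPR3, a reductase of the pathway, by 0.93 ± 0.22. The groups overlap for OPR3, and without replicate 1 of WT its call was lost (adjusted p = 0.096), which left 3 of 11. LOX2 (AT3G45140), a further lipoxygenase gene of the leaf, was at 1826, 1822, 2077 and 2260 CPM in WT and 2170, 2001, 1529 and 1545 CPM in q-lsu-KO, with overlap (-0.14 ± 0.15). Of 16 tested repressors and output genes 1 rose, the repressor JAZ5 (1.68 ± 0.23, adjusted p = 8.4e-06). The master factor MYC2 and the storage protein gene VSP2 differed by 0.41 ± 0.26 and 0.09 ± 0.31 and did not pass. Without replicate 4 of WT 6 of the 16 passed.

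Genes of low sugar and low energy rose too, and here the spread lay in the mutant. In the sugar starvation list 4 of 11 tested members rose and 0 fell (median 0.80), beside 3.53% and 0.637% of all tested genes. The mean log2 CPM of the list was 3.35, 3.64, 3.71 and 3.76 in WT and 4.34, 4.67, 4.91 and 5.36 in q-lsu-KO, without overlap. BT2 (AT3G48360), a BTB protein gene that responds to sugar and nitrogen, was at 0.424, 1.26, 2.03 and 1.15 CPM in WT and 6.90, 19.1, 15.5 and 42.7 CPM in q-lsu-KO. DIN10 (AT5G20250), a dark-inducible raffinose synthase, was at 2.97, 8.79, 4.74 and 6.15 CPM in WT and 12.2, 28.9, 33.7 and 64.1 CPM in q-lsu-KO (2.58 ± 0.68, adjusted p = 0.044). Replicate 1 was lowest and replicate 4 highest among the mutant libraries in both genes. ASN1 (AT3G47340), the dark-induced asparagine synthetase, rose by 1.89 ± 0.44 and BZIP1, a factor of the starvation response, by 2.00 ± 0.46. Without replicate 1 of WT, and also without replicate 4 of q-lsu-KO, 0 of the 11 passed, while DESeq2 called 5 with all libraries.

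Of the 7 class II trehalose phosphate synthase genes, a family whose members respond to sugar, TPS8, TPS9 and TPS11 rose, beside 3.53% of all tested genes. Without replicate 1 of WT, or without replicate 4 of q-lsu-KO, TPS8 alone rose. TPS8 (AT1G70290) kept its call in all 8 fits without 1 library, with 22.5, 23.0, 25.4 and 31.1 CPM in WT and 57.3, 63.9, 76.4 and 91.2 CPM in q-lsu-KO (1.48 ± 0.26, adjusted p = 0.0040). TPS5 went the other way at -0.44 ± 0.11 (adjusted p = 0.0071), short of the fold threshold. The nitrogen repressor genes LBD37 and LBD38 rose by 0.78 ± 0.16 and 0.98 ± 0.23. BT5 (AT4G37610), a relative of BT2 and the third-largest rise by the naming rule, had 4.66, 6.70, 18.3 and 40.7 CPM in WT and 77.4, 140, 159 and 108 CPM in the mutant (2.73 ± 0.67, adjusted p = 0.032), with the WT order of the touch genes. Its call was lost without replicate 1 of WT (adjusted p = 0.094) and was kept in 2 of the 8 fits without 1 library.

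**Figure D3:**
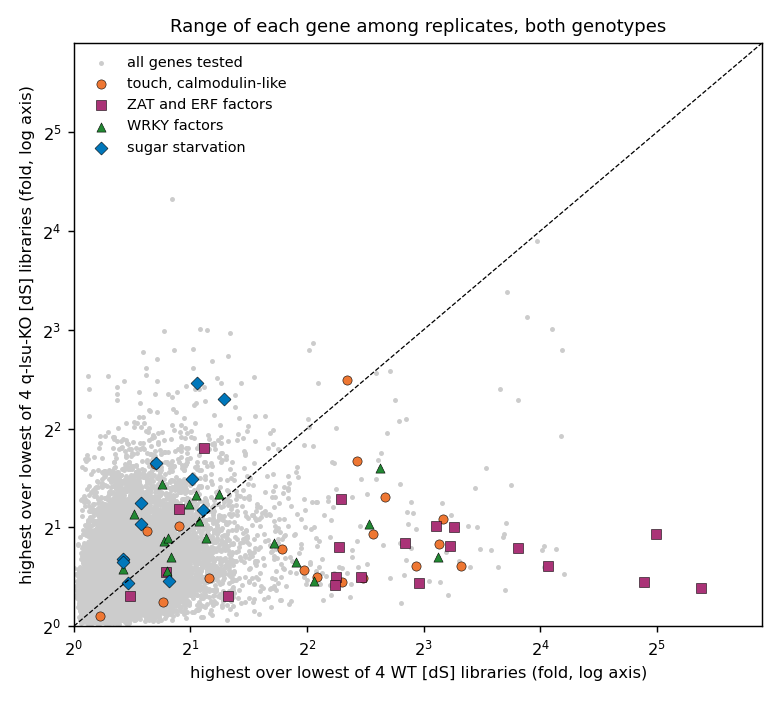
Highest over lowest library for each tested gene, among the 4 WT libraries (x axis) and the 4 q-lsu-KO libraries (y axis), both as folds on log axes, with the dashed line at equal ranges. Most touch, ZAT and ERF genes lie to the lower right, with median ranges of 4.58-fold and 6.35-fold in WT against 1.65-fold and 1.63-fold in q-lsu-KO, and sugar starvation genes lie mostly above the line.

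Over all tested genes the replicates of q-lsu-KO spread slightly more than those of WT, and the touch, ZAT and ERF genes went against this. The median SD of log2 CPM was 0.19 in WT and 0.23 in the mutant, with the larger SD in WT for 40.1% of genes. In the ZAT and ERF list the SD was larger in WT for 18 of 20 genes and in the touch list for 16 of 20. In the WRKY list it was larger in WT for 9 of 18 genes, and in the sugar starvation list for 2 of 11. Among the 515 higher genes WT replicate 1 was the lowest WT library in 62.7%, against 26.3% of all tested genes, and replicate 4 the highest in 60.8%, against 24.3%. The 515 were called on these same WT values, so the shares are not independent of the choice of genes. A WT range of 2-fold or more was found for 160 of these genes (31.1%), against 7.10% of all tested genes. The other 355 varied less than 2-fold in WT, and 265 of the 515 were called in all 8 fits that left out 1 library.

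The S deficiency markers differed little in level between the genotypes under [dS]. Of 15 tested markers 0 rose and 0 fell by edgeR and by DESeq2, 3 had an unadjusted p under 0.05, and the median log2 fold change was -0.07. All q-lsu-KO libraries lay below all WT libraries for 3 of the 15 and above them for 0, against 4.21% and 6.14% of all tested genes. SDI1 (AT5G48850), a repressor of GSL synthesis, was at 1300, 1164, 1311 and 1332 CPM in WT and 1122, 1055, 1018 and 994 CPM in q-lsu-KO, lower without overlap but not called (-0.29 ± 0.18, adjusted p = 0.47). BGLU28 (AT2G44460), a glucosidase that acts on GSL, was at 318, 328, 364 and 383 CPM in WT and 360, 320, 476 and 431 CPM in q-lsu-KO. GGCT2;1 (AT5G26220), which breaks down glutathione, was at 976, 1057, 1055 and 968 CPM in WT and 912, 850, 818 and 834 CPM in q-lsu-KO, lower without overlap, by a difference of -0.25 ± 0.07 that is small but passed on p (adjusted p = 0.024) and missed the fold threshold.

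Sulfate uptake and reduction differed little. Of 8 tested sulfate transporter genes 0 were called by edgeR or DESeq2, with 1 at an unadjusted p under 0.05, and SULTR2;1 and SULTR4;2 differed by 0.08 ± 0.12 and -0.07 ± 0.11. Among 16 genes of sulfate reduction and cysteine synthesis 1 fell, beside 0.637% of all tested genes. APR2 (AT1G62180), the main APS reductase of leaves, was at 406, 365, 333 and 285 CPM in WT and 256, 204, 202 and 231 CPM in q-lsu-KO (-0.63 ± 0.10, adjusted p = 1.7e-04). It kept its call in 6 of the 8 fits without 1 library, and without replicate 1 of WT its difference of -0.56 was under the fold threshold. Its relatives APR1 and APR3 differed by -0.12 ± 0.09 and -0.19 ± 0.13, and sulfite reductase (SIR) by 0.04 ± 0.10, none of which passed. ATPS1 (AT3G22890), the first enzyme of the pathway, was at 308, 280, 275 and 316 CPM in WT and 350, 354, 407 and 462 CPM in q-lsu-KO (0.41 ± 0.08, adjusted p = 4.2e-04), higher without overlap but under the fold threshold. The other ATP sulfurylase genes ATPS2, ATPS3 and ATPS4 did not pass, nor did FSD2, an iron superoxide dismutase (0.18 ± 0.23), or the nitrilase gene NIT3 (-0.11 ± 0.15).

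GSL genes differed by branch, with the aliphatic list as a whole near WT and the indole list above it. Among aliphatic genes 2 of 25 tested fell and 0 rose (median -0.04), beside 0.637% and 3.53% of all tested genes. Estimates were above 0 for 11 of the 25. MYB28 (AT5G61420), the main activator of the aliphatic branch, was at 55.1, 52.8, 50.1 and 51.9 CPM in WT and 28.1, 33.1, 30.9 and 27.7 CPM in q-lsu-KO (-0.80 ± 0.13, adjusted p = 3.1e-05). CYP79F1 fell by 1.20 ± 0.36 at 6.79 to 10.8 CPM in WT and 2.31 to 5.46 CPM in the mutant (adjusted p = 0.049), and lost the call in each of the 8 fits without 1 library. Of the enzyme genes, SOT17, BAT5 and CYP79F2 differed by 0.10 ± 0.21, 0.10 ± 0.31 and -0.10 ± 0.34 and did not pass, and MAM1 was above WT by 0.54 ± 0.14 (adjusted p = 0.0096), under the fold threshold. BCAT4 was at -0.78 ± 0.31 and did not pass (adjusted p = 0.15).

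Among indole GSL genes 3 of 19 rose and 0 fell (median 0.40), beside 3.53% of all tested genes called higher. All q-lsu-KO libraries lay above all WT libraries for 7 of the 19 and below them for 1, against 6.14% and 4.21% of all tested genes. MYB51 (AT1G18570), the main activator of the indole branch in leaves, was at 6.36, 10.5, 9.13 and 18.1 CPM in WT and 39.3, 35.1, 50.9 and 34.6 CPM in q-lsu-KO (1.81 ± 0.28, adjusted p = 6.6e-04). SOT16 (AT1G74100), a sulfotransferase of the last step, was at 35.2, 47.7, 44.7 and 53.4 CPM in WT and 78.5, 69.8, 89.1 and 84.3 CPM in q-lsu-KO (0.81 ± 0.11, adjusted p = 2.1e-06). IGMT1, a methyltransferase that modifies indole GSL, rose by 1.42 ± 0.40 (adjusted p = 0.048), a call lost without replicate 1 of WT (adjusted p = 0.12). APK2, which makes the sulfate donor for GSL, and GSTF10 differed by 0.58 ± 0.14 (adjusted p = 0.0066) and 0.40 ± 0.09 (adjusted p = 0.0031), both under the fold threshold. Without replicate 4 of WT 5 of the 19 passed. Among 14 genes of GSL breakdown 2 fell, ESM1 (-0.62 ± 0.11) and the nitrilase gene NIT4 (-0.90 ± 0.20), beside 0.637% of all tested genes. Without replicate 1 of WT the difference in ESM1 (-0.58) was under the fold threshold.

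**Figure D4:**
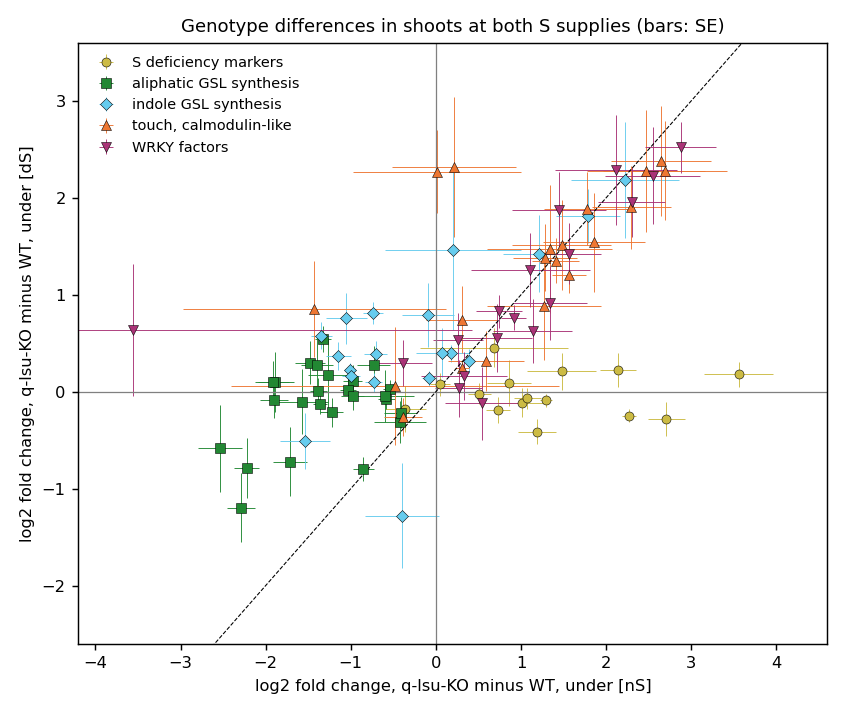
Log2 fold change of q-lsu-KO against WT shoots under [nS] (x axis) and under [dS] (y axis) for the tested members of 5 lists, with SE bars and a dashed line at equal differences. S deficiency markers and aliphatic GSL genes lie along the horizontal zero line, with [nS] medians of 1.07 and -1.33 and [dS] medians of -0.07 and -0.04. Touch and WRKY genes scatter about the dashed line, with [nS] medians of 1.31 and 1.01 and [dS] medians of 1.43 and 0.80. CML40 of the touch list lies off it, at 0.01 under [nS] and 2.27 under [dS].

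The genotype difference under [nS] uses other libraries, sequenced in another pool, so that S supply and pool cannot be told apart here. Beside it, the S genes and the early stress genes behaved differently: the median of the early stress genes was 1.36 under [nS] and 1.27 under [dS]. Under [nS], 10 of the 15 S deficiency markers were higher in q-lsu-KO and 20 of the 25 aliphatic GSL genes lower, and the interaction of genotype and S supply passed for 7 and 12 of them. It passed for 62 (0.425%) of all tested genes and for 0 of the 58 touch, ZAT, ERF and WRKY genes by edgeR. Of these 58, 18 were higher under [dS] and 14 under [nS]. The test was imprecise in several of them, with an interaction SE of 0.80 for TCH4, 0.94 for CML38 and 0.97 for WRKY40. In GGCT2;1 and SDI1 the SE was 0.11 and 0.28. CML40 of the touch list differed by 0.01 under [nS] and by 2.27 under [dS] and did not pass. Absence of a call thus does not show equal differences. In all, 287 genes were higher under both supplies, which is 55.7% of those higher under [dS] and 58.6% of the 490 (3.36%) higher under [nS]. For falls, 29 genes were shared, 31.2% of the 93 under [dS] and 13.6% of the 214 (1.47%) under [nS]. The interaction passed for 6 of the 608 genes called under [dS]. SOT16 was higher under [dS] and lower under [nS] (-0.74), LSU1 was higher by less than under [nS] (2.75), and CIPK9, a kinase gene of calcium signaling, was higher by 1.20 ± 0.12 under [dS] and by 0.43 under [nS]. Of the other three, AT1G56660 and AT1G29320 rose under [dS] (0.85 and 0.83) and stood at -0.46 and -0.84 under [nS], AT1G29320 without its call once replicate 1 of WT was left out (adjusted p = 0.090), and the trehalose phosphatase gene ATTPPA was at -1.10 under [dS] and 0.32 under [nS].

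After LSU2, the largest falls by the naming rule were of 1.04 to 1.29 on the log2 scale. GPT2 (AT1G61800), a glucose 6-phosphate translocator of plastids that is induced by sugar, was at 53.4, 38.1, 55.8 and 55.7 CPM in WT and 33.9, 21.8, 18.2 and 20.8 CPM in q-lsu-KO (-1.08 ± 0.16, adjusted p = 2.5e-05). NIG1 (AT5G46830), a calcium-binding factor of salt responses, was at 22.1, 20.1, 18.9 and 19.2 CPM in WT and 10.1, 11.7, 9.10 and 5.19 CPM in q-lsu-KO. ZFP8, a zinc finger gene of trichome development, fell by 1.04 ± 0.22, UMAMIT36, of an amino acid transporter family, by 1.18 ± 0.25 and ARAD1, a glycosyltransferase gene of pectic arabinan, by 1.11 ± 0.27. The others among the 10 largest falls by the naming rule were AT2G44940, AT1G20070 and AT1G49560, at -1.29 ± 0.29, -1.28 ± 0.30 and -1.10 ± 0.28. Named with their values known, the leaf development factors AS1 and TCP4 fell by 0.77 and 0.65 on the log2 scale, and the DELLA gene GAI by 0.86, with TCP4 under the fold threshold without replicate 1 of WT (-0.57).

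In the flavonoid and anthocyanin list, 3 of 11 tested members fell and 0 rose (median -0.52), and 1 of the 11 estimates was above 0. Of all tested genes 0.637% fell and 3.53% rose. UGT78D2 (AT5G17050), a flavonoid glucosyltransferase, was at 77.2, 49.0, 78.8 and 74.1 CPM in WT and 44.6, 41.7, 47.3 and 41.0 CPM in q-lsu-KO (-0.69 ± 0.14, adjusted p = 8.6e-04). TT7, the flavonoid hydroxylase, fell by 0.65 ± 0.16 (adjusted p = 0.0096). The anthocyanin activator PAP2 (AT1G66390) fell by 1.64 ± 0.40 (adjusted p = 0.0077) from 5.86 to 9.22 CPM in WT to 0 to 4.04 CPM in q-lsu-KO, the lowest at 0 counts. CHS, the entry enzyme, was at 427, 284, 447 and 448 CPM in WT and 333, 323, 306 and 332 CPM in q-lsu-KO, with replicate 2 of WT below the mutant values (adjusted p = 0.47).

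Several gene groups showed few or no calls. Of 22 nuclear photosynthesis genes 0 were called by edgeR or DESeq2 (4 at an unadjusted p under 0.05, median -0.05), and of 17 iron genes and 9 phosphate starvation genes 0 were called by either tool (0 and 1 at an unadjusted p under 0.05). Of 10 glutathione genes and 7 heat shock and chaperone genes 0 were called by either tool (2 and 0 at an unadjusted p under 0.05). Among 15 clock genes TOC1, an evening repressor, rose by 0.71 ± 0.18. Among 16 cold and ABA genes CBF1, a cold-response activator, rose from 0.848, 1.68, 4.40 and 7.30 CPM in WT to 17.0, 19.1, 13.6 and 11.5 CPM in q-lsu-KO (2.08 ± 0.37, adjusted p = 6.9e-04). NAP, a NAC factor of senescence, rose by 1.24 ± 0.29 as 1 of 5 tested senescence genes, whose median was 1.24. RBOHD was the called member among 4 tested hypoxia genes, whose median was 0.70. DESeq2 called 3 of the senescence genes and 2 of the hypoxia genes higher, and the share of all genes called higher was 3.53%. The other 12 listed hypoxia genes, ADH1 and PDC1 among them, were too low to test. Of 3 guard cell and 4 phloem markers 0 were called by either tool (1 and 0 at an unadjusted p under 0.05).

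A run of neighbouring genes on chromosome 1 was higher in q-lsu-KO. Its bounds were chosen with values of these data known, so the counts within it describe the run and do not test it. Of the 12 tested genes from AT1G55450 to AT1G55590, 9 rose and all 12 estimates were above 0, with a median of 0.85. The next tested gene, CLC-F (AT1G55620), rose too (1.11 ± 0.28), whereas 0 of the 10 tested genes before the run were called (median 0.02). AT1G55450, annotated as a methyltransferase, was at 57.2, 76.2, 87.6 and 102 CPM in WT and 345, 423, 467 and 574 CPM in q-lsu-KO (2.48 ± 0.22, adjusted p = 2.1e-05). CPN60B (AT1G55490), a chaperonin of the chloroplast, was at 166, 180, 142 and 130 CPM in WT and 238, 259, 242 and 249 CPM in q-lsu-KO (0.68 ± 0.08, adjusted p = 5.9e-08). The WT libraries were close together here, with a 1.03-fold range of the mean over the run, and 8 of the 12 were called higher under [nS].

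**Figure D5:**
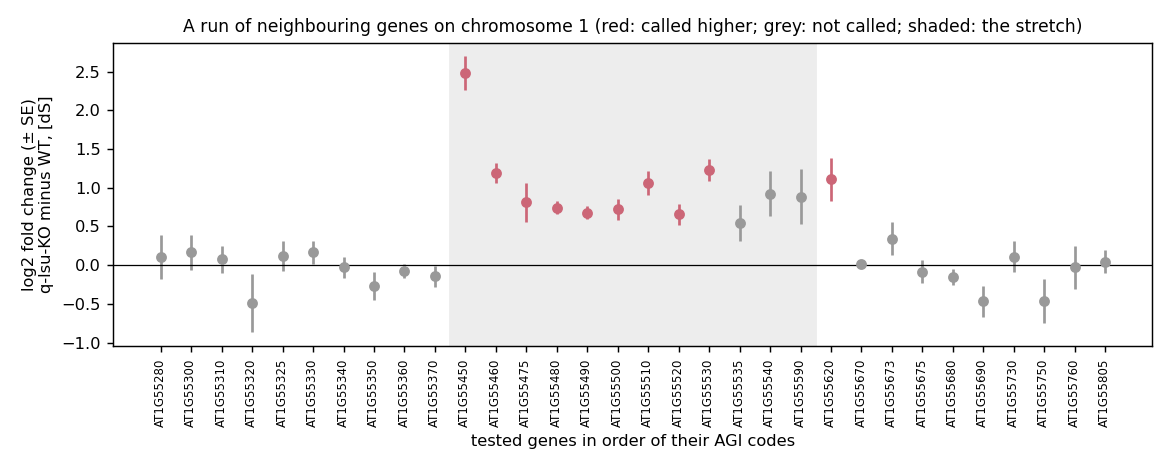
Log2 fold change of q-lsu-KO against WT under [dS] (y axis, with SE bars) for tested genes in the order of their codes on chromosome 1 (x axis), called genes in red, the run shaded. The bounds of the run were chosen with values of these data known. The 12 shaded genes lie between 0.54 and 2.48, and the 10 tested genes before them between -0.49 and 0.17.

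The remaining members of the 10 largest rises by the naming rule, beside LSU4, BT5, DIN10, WRKY53 and AT1G55450, were AT3G15450, AT2G25735, PP2-A5, AT3G15630 and AT1G02660, at log2 fold changes of 2.41 to 2.78. AT1G02660, annotated as a hydrolase, had 4.66, 4.61, 8.46 and 11.5 CPM in WT and 26.5, 37.0, 50.0 and 49.6 CPM in q-lsu-KO (adjusted p = 3.1e-06). PP2-A5 (AT1G65390), a phloem protein gene of the lectin kind, had 3.39, 3.77, 2.37 and 2.31 CPM in WT and 10.1, 18.3, 15.5 and 24.2 CPM in q-lsu-KO (adjusted p = 4.9e-05). AT3G15450 had 14.8, 27.2, 33.5 and 43.8 CPM in WT and 83.3, 181, 232 and 342 CPM in q-lsu-KO, wide in both genotypes, and lost its call without replicate 1 of WT (adjusted p = 0.092).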

How the data were processed

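Shoots of WT and q-lsu-KO under [dS] (4 libraries each) were compared. The authors deposited, for each library, whole-number counts of 37336 genes. STAR 2.7.8a, DESeq2 and the TAIR10 build are in the submitters' processing notes. Not given in the sources used here: the counter, its gene models and whether molecular identifiers were collapsed. Counts were fitted with edgeR 4.0.16 (R 4.3.3; TMM scaling, filterByExpr with a minimum count of 10, robust quasi-likelihood) in 1 model of the 4 groups of 16 shoot libraries. Calls needed a Benjamini-Hochberg adjusted p below 0.05 and a change beyond 1.5-fold. CPM are TMM-scaled, log2 CPM have a prior count of 2, and ± is the SE of the log2 fold change. The test was checked on simulated counts. Named were the LSU genes and those of the study's accession list, the 10 largest rises and falls without overlap (mean log2 CPM of at least 3), up to 6 called members per list, up to 5 interactions each way and the 10 widest WT ranges among early stress genes, and others are said to be chosen later. Members and lists were chosen with earlier results of these data known. Alternatives were RLE and upper-quartile scaling, DESeq2 1.42.0, limma 3.58.1 voom with library weights, no filter, a mean CPM of 5 or more, only the 8 libraries, a replicate block, organelle genes left out, thinned counts, adjusted p alone and each library left out. Leaving out WT replicates 1 and 4 together was chosen after seeing the data. Upstream windows came from the TAIR10.1 reference, since the counts carry no coordinates.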

Additional observations from a re-analysis of the deposited data

Results flagged for a closer look

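In groups of 4 libraries, a single library stood far from the other 3 in 13 of 298 gene and group pairs examined. Some such cases arise by chance, and their number was not tested against it. Replicate 1 of WT was low for LSU4 (7.63 CPM) and SYP121 (17.4 CPM). Replicate 2 of WT was low for CYP79F2 (2.09), GPT2 (38.1), UGT78D2 (49.0) and CHS (284 CPM), and in the mean log2 CPM of the clock list (4.15). Replicate 4 of WT was low for ATTPPA (8.84 CPM) and high for PUB23 (12.7 CPM), and replicate 3 was high for AT1G55460 (33.8 CPM). In q-lsu-KO, replicate 1 was high for PR5 (168 CPM) and in the mean of the salicylate list (6.10), low for GILP (110 CPM) and in the mean of the nitrate and LBD list (5.89), and set apart for GAI (20.7 CPM). Replicate 4 of q-lsu-KO was high for TPS11 (46.7 CPM).

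The genotype effect differed between S supplies, which were sequenced in different pools, by the interaction test for 22 of the named genes. The value given is the effect under [dS] minus that under [nS] on the log2 scale. It was below 0 for S deficiency genes: BGLU28 (-3.38), SDI1 (-2.99), GGCT2;1 (-2.52), SHM7 (-1.92), SERAT3;2 (-1.60), NSP5 (-1.38) and SULTR4;2 (-1.14), and for LSU1 (-1.78), LSU3 (-1.72) and ATTPPA (-1.43). It was above 0 for GSL genes: SOT17 (2.01), BAT5 (1.99), APK2 (1.92), MAM1 (1.87), SOT16 (1.55), IMD1 (1.39), GSTF9 (1.23) and CYP83A1 (1.23). The same held for AT1G29320 (1.67), AT1G56660 (1.31), ATPS2 (1.17) and CIPK9 (0.78).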

How the results depend on the processing

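Of the 97 named genes that were called, all 97 kept their direction under the 19 alternatives that refitted the genes, and 41 kept their call under each of them. Higher genes were 515 in the main fit and 329 to 647 with 1 library left out, the lowest without replicate 1 of WT, where 320 of the 515 were still called. Lower genes were 93 in the main fit and 48 to 129 with 1 library left out, the lowest without replicate 4 of q-lsu-KO (38 of the 93 still called). The lower genes also moved by over 1.5 times under upper-quartile scaling (160), DESeq2 (52), counts thinned to the smallest library (53), adjusted p alone (217) and without WT replicates 1 and 4 together (48, beside 356 higher genes). Genes with an interaction were 62 in the main fit and 49 to 81 under the alternatives. Upper-quartile scaling moved the median of all genes by -0.05. With a replicate block 563 genes were higher, 112 lower and 63 had an interaction. Over all tested genes same-numbered libraries did not deviate together under [dS] (r of -0.10 to 0.04). This does not settle whether the numbers pair the libraries. The means of the sugar starvation and jasmonate synthesis lists rose in the order of the replicate numbers in both genotypes. Those of the touch and the ZAT and ERF lists did so in WT only. The cause of the shifts between settings was not tested. The mutant libraries held 1096342 to 2596083 counts, and low genes limit the precision: 12 of 16 hypoxia genes and 6 of 7 root markers could not be tested.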
